A study of Homo sapiens with 5 samples.

Results

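The intermediate filament genes described here are a set of mixed lineage: VIM of mesenchymal cells, NES of progenitors, NEFM and INA of neurons, KRT8, KRT18 and KRT19 of epithelia, and LMNA and LMNB1 of the nuclear lamina. They were taken by Ensembl identifier from a fixed list, which also gives their symbols. All 9 were present among the 20001 genes of the deposited table, and 7 of the 9 had enough counts to be tested. Intermediate filaments are rope-like polymers of coiled-coil proteins that give cells and nuclei mechanical strength. Each lineage is known by its own cytoplasmic set, so the genes serve as lineage markers, whereas the lamins line the nucleus of nearly every cell. HEK293T, a human embryonic kidney line carrying the SV40 large T antigen, is known for a mixture of epithelial, mesenchymal and neuronal filament proteins.

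The data are nascent transcription by PRO-seq, in which engaged polymerases are allowed to run on with biotin-labelled nucleotides and the labelled RNA is counted per gene. One group was HEK293T cells with a landing pad, a genomic site that accepts inserted DNA, holding the CAG promoter (3 libraries). The other was HEK293T cells with the PGK promoter in the landing pad (2 libraries). Both kinds of cells were monoclonal lines, the landing pad was common to them, and no treatment is named in the labels. How many clones stand behind each promoter is not stated, so promoter and clone cannot be told apart. Nor do the labels say whether the replicates were separate cultures, so p-values measure the spread between these libraries only.

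Library totals were 4873883, 5003130 and 5864157 counts in the CAG line, against 5582070 and 3712105 counts in the PGK line. Of 13400 genes tested over the whole table, 5818 (43.4%) differed between the lines at an adjusted p under 0.05 by edgeR's quasi-likelihood test with Benjamini-Hochberg adjustment, 22.7% higher and 20.7% lower in the CAG line. Levels are given as CPM, the counts of a gene scaled to the TMM-adjusted library size. They were compared within a gene and not between genes, because the counts are not scaled by gene length. Symbols of kidney or other lineage markers could not be paired with the identifiers of the table, so the cell type label was not checked with them here.

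The promoters of the called genes are shown because nascent counts begin at the start of a gene. RefSeq's promoter table (GRCh38.p14) held 6 of the 9 genes, with none listed for NEFM, KRT18 and KRT19. Of each promoter, 30 bases upstream of a listed start are printed 5′ to 3′ on the gene's strand. Capitals mark matches to TTAAAA, a letter string close to a TATA box, or to GGGCGG, the GC box, on either strand.
INA (chr10:103277108-103277137, bases -30 to -1): ccTTAAAAgccgggcgcaCCGCCCcgccgc
VIM (chr10:17228181-17228210, bases -60 to -31): gaccagagggacggGGGCGGggactctgca
KRT8 (minus strand, chr12:52926470-52926499, bases -30 to -1): ttgtggggaggtgcctgatgcatgattttc
The VIM stretch lies farther upstream than those of INA and KRT8 and holds the GC box of VIM, which began at base -46. The printed stretches are therefore not like parts of the promoters. The motifs were chosen after the sequences had been read. The shares below therefore cannot show an enrichment in these genes, and several starts belong to the same gene. The 6 genes had 9 listed starts, 3 of them for LMNA and 2 for LMNB1. Within 250 bases upstream, GGGCGG was found at 7 of the 9 starts, and at 42.6% of the 35116 starts in the table. TTAAAA was found at 6 of the 9 starts and 16.4% of all starts, and TATAAA at 0 of the 9 and 10.7% of all starts. The TTAAAA matches belonged to 4 of the 6 genes. In INA the match began at base -28, with a GC box starting at base -12. The other TTAAAA matches began farther upstream, at base -109 in VIM, -106 and -207 in LMNA, and -192 and -224 in LMNB1. The KRT8 start is the 1 listed for that gene, and no motif searched lay within the 250 bases upstream of it. Whether it is the outermost start of KRT8 was not checked. Whether transcription of KRT8 in these lines began at that start was not tested. These matches describe letters and were not set against the changes in transcription.

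Among the filament genes, INA, KRT8 and VIM were transcribed more in the CAG line, and no gene of the set was called lower with all 5 libraries in the test. The 3 called genes are 42.9% of the 7 tested, close to the 43.4% of all tested genes. All 3 were higher, 2 of them by at least 2-fold, a size and direction that 5.01% of all tested genes had. The median log2 fold change over the 7 genes was 0.55, and over all tested genes it was -0.0046. The CAG and PGK libraries did not overlap for 6 of the 7 genes, in each with the CAG libraries above, where 61.2% of all tested genes had libraries that did not overlap in either direction. Counts of 7 genes are too few to set the list apart from the rest of the table.

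**Figure D1:**
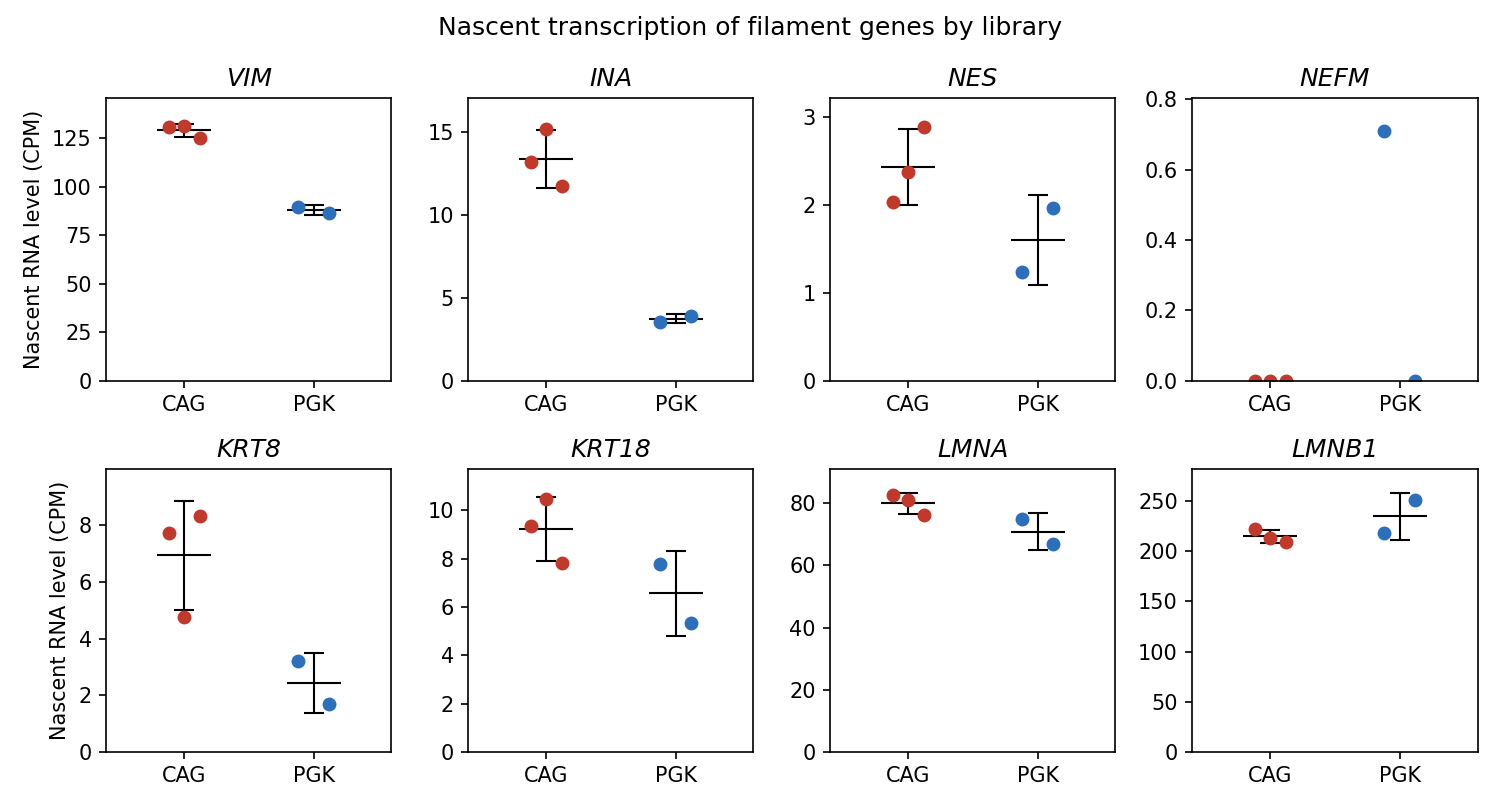
Nascent RNA level in CPM (y axis, from 0) of 8 filament genes in the 3 CAG libraries (red) and the 2 PGK libraries (blue). Points are libraries, horizontal bars are means and whiskers SD, except for NEFM, where only the libraries are drawn. KRT19, with 0 counts in all libraries, is not drawn. INA, KRT8 and VIM show the called differences, and LMNB1 is the 1 tested gene whose libraries overlap.

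Among the neuronal filament genes, INA was transcribed in both lines and was 3.59-fold higher in the CAG line. INA (ENSG00000148798) encodes alpha-internexin, a filament protein that assembles early in neurons and joins neurofilaments. It had 65, 77 and 69 counts in the CAG libraries (13.2, 15.2 and 11.7 CPM), against 20 and 14 counts in the PGK libraries (3.55 and 3.93 CPM). The lowest CAG library stood well above the highest PGK library. The means were 13.4 ± 1.75 CPM in the CAG line (SD, n = 3), against 3.74 ± 0.268 CPM in the PGK line (SD, n = 2). The log2 fold change was 1.84 with a 95% interval of 1.33 to 2.36 (edgeR adjusted p = 1.31e-06). Its fitted standard error, 0.25, was slightly under the 0.27 that counting error alone gives, so the interval is somewhat too narrow. Of all tested genes, 173 (1.29%) had a larger log2 fold change. In bulk libraries, more cells transcribing a gene and more transcription per cell cannot be told apart.

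NEFM (ENSG00000104722), the medium neurofilament subunit, was close to silent. It had 0 counts in all 3 CAG libraries, against 4 and 0 counts in the PGK libraries. All of its signal thus came from PGK replicate 1. A count of 0 over the 3 CAG libraries allows a level of up to 0.189 CPM, taking 3 counts as the limit. The summed level in the PGK line was 0.434 CPM, with an exact Poisson 95% interval of 0.118 to 1.11 CPM. The same kind of interval for the CAG line was 0 to 0.233 CPM, and these intervals overlap. NEFM was too scarce to be tested, and such intervals and limits cover counting error only. The ratio of NEFM to INA was not computed, since it has no value at 0 counts.

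NES (ENSG00000132688) encodes nestin, a large filament protein of neural and muscle progenitors that needs a partner such as vimentin to assemble. It had 10, 12 and 17 counts in the CAG libraries (2.03, 2.37 and 2.89 CPM), against 7 and 7 counts in the PGK libraries (1.24 and 1.96 CPM). The groups did not overlap, by a margin of less than a single count. The log2 fold change of 0.68 had a 95% interval of -0.20 to 1.57 (edgeR adjusted p = 0.211), so a difference was not detectable at this depth. It ran from 0.31 without PGK replicate 1 to 0.98 without PGK replicate 2, so its size rests on the PGK library used.

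VIM (ENSG00000026025) encodes vimentin, the main filament of mesenchymal cells and of many cultured lines. It was counted in every library: 644, 665 and 736 counts in the CAG line (131, 132 and 125 CPM), against 507 and 308 counts in the PGK line (89.9 and 86.4 CPM). The spread within each line was small beside the gap between them. The means were 129 ± 3.49 CPM in the CAG line (SD, n = 3), against 88.1 ± 2.50 CPM in the PGK line (SD, n = 2), a 1.46-fold rise. The log2 fold change was 0.55 with a 95% interval of 0.40 to 0.69 (edgeR adjusted p = 8.22e-07). RefSeq places the antisense RNA gene VIM-AS1 over VIM. The strand setting of the counting is not given in the sources used here, so reads of the pair may not have been kept apart.

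The ratio of NES to VIM, taken within each library so that library size drops out, was 0.0155, 0.0180 and 0.0231 in the CAG libraries, against 0.0138 and 0.0227 in the PGK libraries. These ranges overlapped. The difference of the mean log2 ratio, CAG minus PGK, was 0.07 (exact two-sided permutation p = 0.8, 0.8 after Benjamini-Hochberg adjustment over the 3 ratios computed). With 3 against 2 libraries this test cannot go below 0.2. The sign of so small a difference turned without PGK replicate 1 (-0.29).

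Of the epithelial keratins, KRT8 rose, KRT18 did not pass the test and KRT19 was not seen. KRT8 (ENSG00000170421), a type II keratin, and KRT18 (ENSG00000111057), a type I keratin, are the obligate partners that pair in the filaments of simple epithelia. KRT8 had 38, 24 and 49 counts in the CAG libraries (7.73, 4.75 and 8.34 CPM), against 18 and 6 counts in the PGK libraries (3.19 and 1.68 CPM). All 3 CAG libraries were above both PGK libraries, and CAG replicate 2 lay nearest to them. The means were 6.94 ± 1.92 CPM in the CAG line (SD, n = 3), against 2.44 ± 1.07 CPM in the PGK line (SD, n = 2). The fitted rise was 2.68-fold (1.42 on the log2 scale), with a 95% interval of 0.73 to 2.11 (edgeR adjusted p = 0.00127). Without PGK replicate 1, which leaves 6 PGK counts, the log2 fold change was 2.03, and without PGK replicate 2 it was 1.13. Of all tested genes, 2.49% had a larger log2 fold change.

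KRT18 had 46, 53 and 46 counts in the CAG libraries (9.36, 10.5 and 7.83 CPM), against 44 and 19 counts in the PGK libraries (7.80 and 5.33 CPM). CAG replicate 3 and PGK replicate 1 were almost level, so the groups were barely apart. The means were 9.22 ± 1.33 CPM in the CAG line (SD, n = 3), against 6.56 ± 1.75 CPM in the PGK line (SD, n = 2). The log2 fold change was 0.43 with a 95% interval of -0.06 to 0.92 (edgeR adjusted p = 0.152). That interval reaches from no change to a 1.89-fold rise and does not show that KRT18 was the same in both lines.

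KRT19 (ENSG00000171345), a type I keratin of ductal epithelia that is unusual in its short tail, had 0 counts in all 5 libraries. The limit of 3 counts corresponds to 0.189 CPM over the CAG libraries and 0.326 CPM over the PGK libraries. No fold was computed, and a ratio to KRT18 has no value.

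The balance within the keratin pair was read from the ratio of KRT8 to KRT18 counts in each library. It was 0.826, 0.453 and 1.07 in the CAG libraries, against 0.409 and 0.316 in the PGK libraries. All CAG ratios were above the PGK ratios, by a narrow margin in CAG replicate 2. The mean log2 ratio was -0.44 ± 0.63 in the CAG line (SD, n = 3), against -1.48 ± 0.26 in the PGK line (SD, n = 2). The difference of 1.03 is a 2.05-fold change of the ratio (exact two-sided permutation p = 0.2, the smallest this design allows, and 0.3 after adjustment over 3 ratios). Since this test could not have given a smaller p, it cannot decide whether KRT8 and KRT18 differed in response. In RefSeq the annotated span of KRT8 overlaps that of KRT18, and both genes are known to have many processed pseudogenes. How the authors' counting treated shared reads is not given, so the values of this pair are uncertain.

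**Figure D2:**
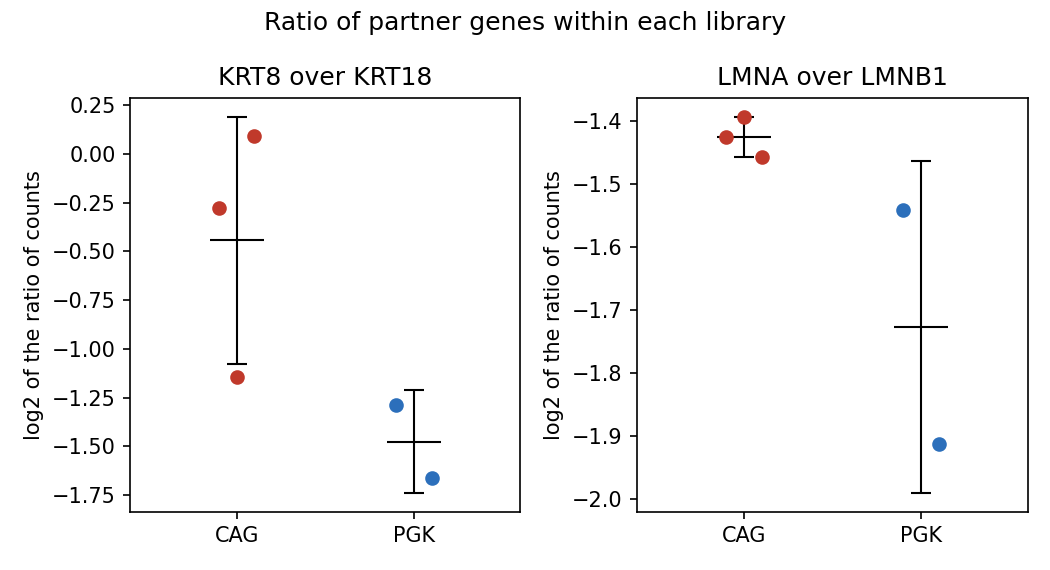
Log2 of the ratio of counts within each library (y axis) for KRT8 over KRT18 and LMNA over LMNB1 in the CAG (red) and PGK (blue) lines. Points are libraries, horizontal bars means and whiskers SD. CAG ratios lie above PGK ratios in both pairs, with exact permutation p = 0.2 in each.

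Neither lamin gene passed the test. LMNA (ENSG00000160789) encodes lamins A and C, which stiffen the nucleus and are known to increase in mechanically stressed and differentiated cells. It had 406, 410 and 448 counts in the CAG libraries (82.6, 81.1 and 76.2 CPM), against 423 and 238 counts in the PGK libraries (75.0 and 66.7 CPM). The CAG libraries were all above the PGK libraries, though CAG replicate 3 and PGK replicate 1 lay close together. The means were 80.0 ± 3.32 CPM in the CAG line (SD, n = 3), against 70.9 ± 5.85 CPM in the PGK line (SD, n = 2). The fitted ratio of CAG to PGK was 1.12 with a 95% interval of 0.992 to 1.26 (edgeR adjusted p = 0.125). A change of LMNA beyond that upper bound lay outside the interval.

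LMNB1 (ENSG00000113368) encodes lamin B1, a lamin that stays anchored in the nuclear membrane and is known to fall when cells become senescent. It had 1091, 1077 and 1230 counts in the CAG libraries (222, 213 and 209 CPM), against 1231 and 897 counts in the PGK libraries (218 and 251 CPM). PGK replicate 1 lay within the CAG range and PGK replicate 2 above it. The means were 215 ± 6.50 CPM in the CAG line (SD, n = 3), against 235 ± 23.5 CPM in the PGK line (SD, n = 2). The fitted ratio of CAG to PGK was 0.917 with a 95% interval of 0.820 to 1.02 (edgeR adjusted p = 0.203). Without PGK replicate 1, which left only PGK replicate 2 for that line, the log2 fold change of LMNB1 was -0.24 by edgeR. Without PGK replicate 2, the log2 fold change was -0.022.

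The disagreement between the PGK libraries was larger for LMNB1 than counting error gives. Chi-square per degree of freedom of its counts, about 1 where only counting error is present, was 1.03 among the CAG libraries and 10.4 between the PGK libraries. For VIM the same index was 0.523 among the CAG libraries and 0.309 between the PGK libraries. Between the PGK libraries it was 2.08 for LMNA, 1.95 for KRT18, 1.91 for KRT8, 0.748 for NES and 0.0851 for INA. With 1 degree of freedom between the PGK libraries, the index scatters widely under counting error alone. The VIM replicates thus showed no excess over counting error, though a low index shows little. The LMNB1 comparison turned on which PGK library was used.

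The ratio of LMNA to LMNB1 was 0.372, 0.381 and 0.364 in the CAG libraries, against 0.344 and 0.265 in the PGK libraries. The CAG libraries were close to each other and all above the PGK libraries. The mean log2 ratio was -1.43 ± 0.03 in the CAG line (SD, n = 3), against -1.73 ± 0.26 in the PGK line (SD, n = 2), a difference of 0.30 (exact two-sided permutation p = 0.2, and 0.3 after adjustment over 3 ratios). It was 0.49 without PGK replicate 1 and 0.12 without PGK replicate 2, so its size rests on the choice of PGK library.

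The 9 genes together took a slightly larger share of counts in the CAG line. Their summed counts were 0.0459% ± 0.00151 of a library in the CAG line (SD, n = 3), against 0.0403% ± 0.00019 in the PGK line (SD, n = 2). Within that sum, VIM took 28.4% ± 0.344 in the CAG line, against 21.6% ± 1.28 in the PGK line. INA took 2.94% ± 0.345 in the CAG line, against 0.914% ± 0.0374 in the PGK line. The share of LMNB1 was 47.1% ± 0.551 in the CAG line, against 57.4% ± 3.98 in the PGK line, and that of LMNA 17.5% ± 0.235 in the CAG line, against 17.4% ± 1.97 in the PGK line. These shares add up to the whole, so each depends on the levels of the other genes as well as its own. The counts were not scaled by gene length, so a share is to be compared between the lines and not between genes.

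The called genes differed in how their neighbours in the table behaved. Each gene was set beside the 20 tested genes before it and the 20 after it in row order, because fold changes along this table run in stretches. The 9 genes stood in the same order by row as by chromosome and start in RefSeq, on chromosomes 1 (LMNA, then NES), 5 (LMNB1), 8 (NEFM), 10 (VIM, then INA), 12 (KRT8, then KRT18) and 17 (KRT19). What orders the remaining rows is not stated in the sources used here.

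VIM rose together with its surroundings. The 40 neighbours had a median log2 fold change of 0.61 (quartiles 0.43 and 0.76), and 33 of them were called higher, 0 lower. The value of VIM, 0.55, lay inside the quartiles, and 22 of the 40 neighbours had a larger one. The neighbours before and after it had medians of 0.60 and 0.61. The rise of VIM was thus no larger than that of the genes listed around it.

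INA moved against its surroundings. Its 40 neighbours had a median log2 fold change of -0.25, with 24 called lower and 2 called higher in the CAG line. The highest among them was 0.70, and the value of INA exceeded all 40. INA lay 2.09 above its neighbours' median on the log2 scale.

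KRT8 also stood above all 40 of its neighbours, whose median log2 fold change was -0.02 with 3 called higher and 7 lower. KRT18, in the next row, had 36 of 40 neighbours below it. For NES the median of the neighbours was -0.06, and 4 of 40 had a larger log2 fold change than NES. LMNA and NES lay 22 rows apart, so they share neighbours. LMNB1, at -0.13, was close to the median of its own neighbours, -0.14. Around the untested genes the medians were -0.08 for NEFM and -0.03 for KRT19.

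**Figure D3:**
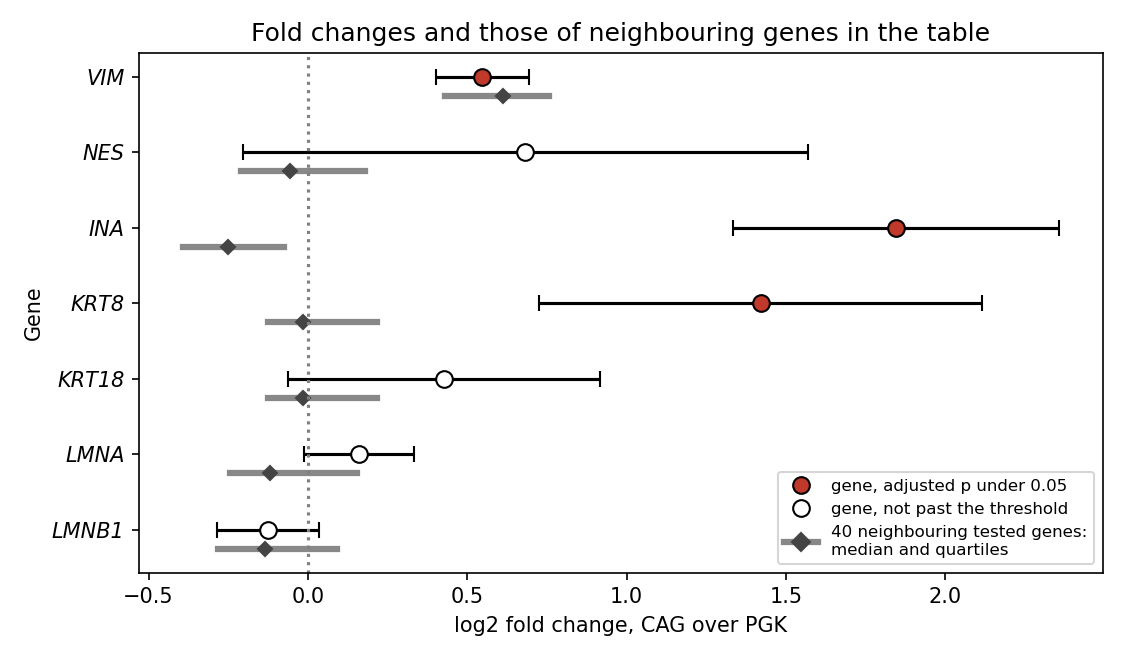
Log2 fold change of CAG over PGK (x axis) for the 7 tested filament genes, with 95% intervals (red, adjusted p under 0.05; white, not past the threshold). Grey bars give the quartiles and diamonds the median of the 40 neighbouring tested genes in the table. The neighbours of VIM, at a median of 0.61, cover its own value, and those of INA, at -0.25, lie on the other side of 0.

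**Figure D4:**
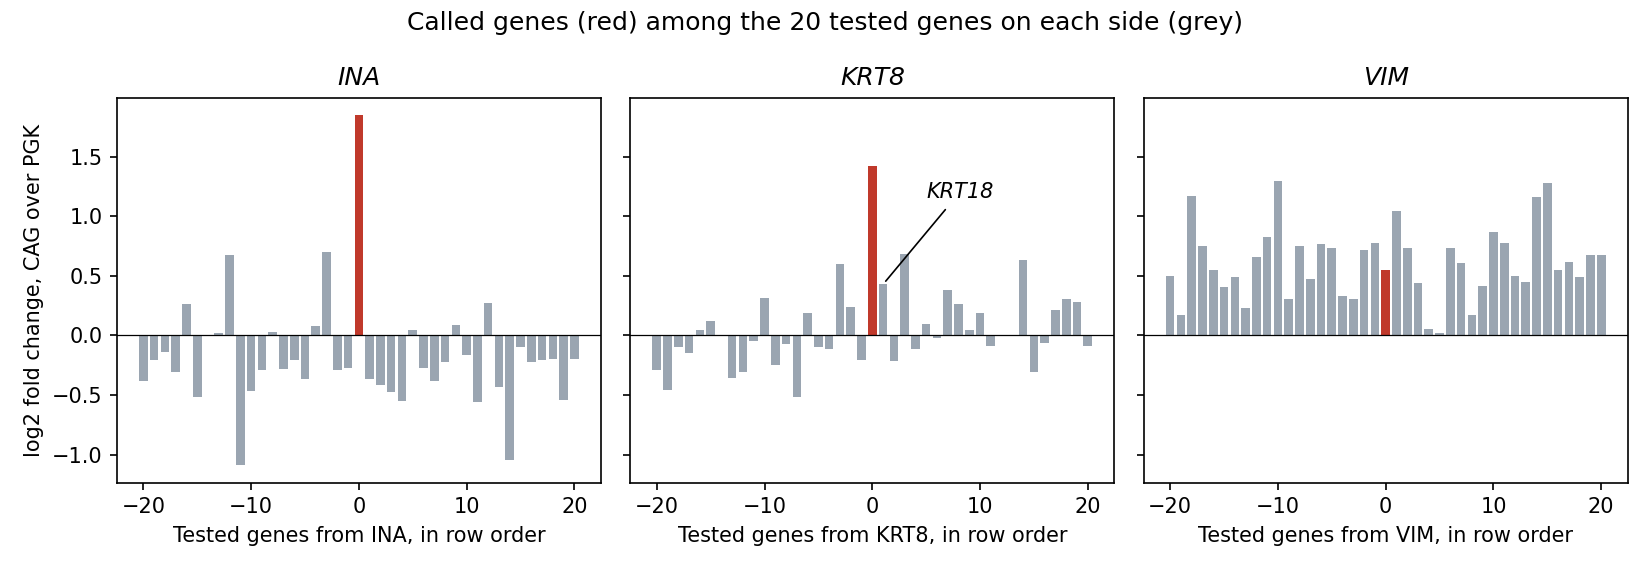
Log2 fold change of CAG over PGK (y axis) for INA, KRT8 and VIM (red) and for the 20 tested genes on each side in row order (grey; x axis, count of tested genes from the named gene). INA and KRT8 exceed all 40 neighbours, and VIM, at 0.55, sits among neighbours of which 33 were called higher.

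For the genes called with at least a 2-fold change, the tested genes with the most similar profile were sought by Euclidean distance between log2 CPM values centred over the 5 libraries, among 12110 others with a mean of at least 5 CPM. The nearest to INA was ENSG00000114646 (distance 0.17), which stood at 51.3 CPM in the CAG line, against 15.8 CPM in the PGK line. The nearest to KRT8 was ENSG00000198821 (distance 0.35), at 8.30 CPM in the CAG line, against 2.98 CPM in the PGK line. The table gives no symbols for either. Profiles over 5 libraries in 2 lines carry little beyond the difference between the lines, so this likeness is a description only.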

How the data were processed

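The authors deposited 1 table of raw counts, with a row per Ensembl identifier and a column for each of 5 PRO-seq libraries. The submitters' processing notes name the build hg19 and the tools featureCounts 2.0.3, UMI-tools, HISAT2 2.2.1, Bowtie2 2.5.1, cutadapt and fastp 0.23.2. The sources used here do not give the annotation, the strand setting or the counted part of a gene, so paused and elongating polymerases cannot be told apart. Groups and replicate numbers came from sample titles. Of 20019 rows, 18 without an identifier were left out (at most 25 counts in a library).

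Genes passing edgeR's filterByExpr (minimum count 10, minimum total 15) were scaled by TMM and tested with edgeR 4.0.16 in R 4.3.3 (quasi-likelihood test, CAG over PGK, no covariate). P-values were adjusted over all 13400 genes with Benjamini-Hochberg, and calls had an adjusted p under 0.05. Standard errors were the fold change on the log2 scale divided by the root of the F statistic. Alternatives were DESeq2 1.42.0, its size factors, upper-quartile factors, limma-trend (limma 3.58.1), other filters, the replicate number as a block and leaving out each library.

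The genes, lists and tests were chosen with earlier results of these data known. By rule, all 9 genes are named. RefSeq's table held 0 Ensembl identifiers, so related filament, linker and nuclear envelope genes and lineage markers were not analysed here, nor was RNA-seq of these lines used. The 2 nearest-profile genes are given by identifier.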

Additional observations from a re-analysis of the deposited data

Results flagged for a closer look

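The 18 rows without a gene identifier, which no comparison used, held 95 counts over the 5 libraries: 21, 15 and 21 in the CAG line, against 25 and 13 in the PGK line. They were noted because counts are present in rows outside the comparisons. Single libraries were not tested for standing apart, since neither line had 4.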

How the results depend on the processing

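The count of called filament genes was 3 under each alternative that kept all 5 libraries, including the replicate block (3 called higher, 0 lower), and 3 to 4 with 1 library left out. The 4th was LMNB1 without PGK replicate 1, where 1 library stood for the PGK line. The log2 fold change of LMNB1 ran from -0.24 to -0.022 over the left-out libraries. A lone PGK library was taken to have the spread of the CAG line. INA, KRT8 and VIM stayed called under all 12 alternatives, with highest adjusted p of 2.36e-05, 0.0129 and 2.92e-05. Log2 fold changes ran from 1.73 to 1.94 for INA, 1.13 to 2.03 for KRT8 and 0.52 to 0.57 for VIM. NES, KRT18 and LMNA did not pass the threshold under any of the 12 alternatives, with lowest adjusted p of 0.179, 0.0603 and 0.0538. With the replicate block, log2 fold changes were 1.92 for INA, 1.34 for KRT8 and 0.57 for VIM, and no call of a filament gene changed. Libraries with the same number deviated from their line with correlations of 0.04 and -0.07. The deviations of the 2 PGK libraries from their mean mirror each other, so these values cannot show whether libraries were paired. The LMNA to LMNB1 difference ran from 0.12 to 0.49 with 1 library left out; the cause was not tested. That of KRT8 to KRT18 ran from 0.77 to 1.38, and was 0.88 with 2 counts added. That of NES to VIM ran from -0.29 to 0.43, and was -0.07 with 2 counts added. With 10 neighbours on each side, the neighbours' medians were 0.66 for VIM, -0.28 for INA and 0.07 for KRT8. Alternatives for related genes were not run. Depth limits KRT8, KRT18, INA and NES, whose PGK libraries held 6 to 44 counts each.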
